A study of Arabidopsis thaliana with 12 samples.

Results

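The transcripts of 10 Aux/IAA genes, which encode repressors of the auxin response, were followed in roots of Arabidopsis thaliana plants with altered ERF115 or ERF114. The genes were taken from a list of gene identifiers that was written with earlier results of these data known, and all 10 were found among the 37884 genes of the deposited expression table. They are IAA1 (AT4G14560), IAA2 (AT3G23030), IAA3 (AT1G04240), IAA5 (AT1G15580), IAA6 (AT1G52830), IAA7 (AT3G23050), IAA12 (AT1G04550), IAA13 (AT2G33310), IAA17 (AT1G04250) and IAA19 (AT3G15540). Of these, 9 passed the filter for testing, an average of 10 or more normalized counts across libraries, and so did 23375 of all genes. IAA5 fell below it and is described by its values and by a fit without the filter.

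Aux/IAA proteins are short-lived nuclear repressors. They bind auxin response factors (ARFs), the transcription factors that sit on auxin-responsive promoters, and keep those genes off by bringing in TOPLESS co-repressors. Auxin acts as a glue between an Aux/IAA protein and a TIR1/AFB receptor, the F-box subunit of an SCF ubiquitin ligase, so that the repressor is ubiquitinated and degraded and the ARF is released. Many Aux/IAA genes are themselves rapidly induced by auxin, which closes a feedback loop. In the root, gain-of-function mutants of single members alter gravitropism, root hairs, lateral roots, meristem size or the embryonic root.

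Messenger RNA was sequenced from roots of seedlings 4 days old, with 3 libraries of each genotype. ERF115OX plants carried 35S:ERF115, ERF114OX plants carried 35S:ERF114, and ERF115-SRDX plants carried 35S:ERF115-SRDX, a fusion of ERF115 to a short transcriptional repression domain. WT plants were of the accession Col-0. ERF115 and ERF114 are related transcription factors of the AP2/ERF family, and the stated aim was to find the genes downstream of them. The 35S promoter of cauliflower mosaic virus is active in most plant cells, so expression was not limited to the cells that normally use these genes. The labels name neither the number of independent lines nor whether the replicates came from separate plants, so p-values speak only for the spread of the libraries, which may be technical. The ERF114 libraries have the name ERF115OX in brackets in their genotype label, so they were grouped by title.

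Library depth lay between 47242114 and 48343410 reads. The transgenes matched the titles. ERF115 averaged 36657 ± 1881 normalized counts in ERF115OX roots, 6.23 ± 3.95 in ERF114OX roots and 85592 ± 2823 in ERF115-SRDX roots (SD, n = 3 each). It had 4.86, 23.4 and 561 in WT 1, WT 2 and WT 3, so WT 3 stood far above the other WT libraries. ERF114 averaged 46518 ± 1835 normalized counts in ERF114OX and no more than 104 in any library of the other genotypes. All 10 root marker genes were above 0 in every library, and their mean log2 level lay between 9.90 and 10.5. Some of them changed against WT. PHO1, a phosphate exporter of the stele, fell in ERF115-SRDX, with 5979 ± 305 normalized counts against 14190 ± 1072 in WT (log2 change -1.25, adjusted p = 8.3e-09, limma). SHR, COBL9 and EXPA7 rose in both overexpression lines, with log2 changes from 0.43 to 0.68, and PLT2 fell in ERF115OX (-0.53, adjusted p = 0.031). The part of these shifts in the Aux/IAA values was not tested. The libraries also held transcripts of photosynthetic genes. The mean log2 level of 19 such genes was 13.8 ± 0.25 in ERF115OX roots, 13.6 ± 1.03 in ERF114OX roots and 9.83 ± 2.48 in ERF115-SRDX roots, against 14.9 ± 0.52 in WT (SD, n = 3 each), and none of the 19 was at 0 in any library. ERF114OX 1, at 12.4, stood below the other ERF114OX libraries, and ERF115-SRDX 2, at 12.7, stood above the other ERF115-SRDX libraries, at 8.22 and 8.57.

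IAA7 fell in all 3 transgenic lines against WT. IAA13 and IAA17 rose in both overexpression lines, by 1.15- to 1.21-fold, and IAA2 and IAA19 fell in ERF114OX. In ERF115-SRDX, IAA1 and IAA2 fell to 0.380 and 0.402 of their WT means, IAA3 fell and IAA19 rose. Calls were made in limma at a threshold of 0.05 on p-values adjusted by Benjamini and Hochberg's method across all genes tested. In ERF115OX, 2 of the 9 tested members rose and 1 fell, where 32.1% of all genes were called, 16.4% higher and 15.7% lower. In ERF114OX, 2 of 9 rose and 3 fell, where 37.1% of all genes were called, 17.5% higher and 19.6% lower. In ERF115-SRDX, 1 of 9 rose and 4 fell, where 50.1% of all genes were called, 23.4% higher and 26.6% lower. The shares of members called, 33.3, 55.6 and 55.6%, lie near those backgrounds in ERF115OX and ERF115-SRDX. The 3 libraries of the line did not overlap the 3 of WT for 4 members in ERF115OX roots, 6 in ERF114OX roots and 6 in ERF115-SRDX roots, where 44.9, 50 and 59.6% of all genes did not overlap. The median log2 change of the tested members was 0.02, -0.15 and -0.10 in the same order of lines, against -0.0013, -0.014 and -0.0011 over all genes. All 3 comparisons use the same WT libraries.

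**Figure D1:**
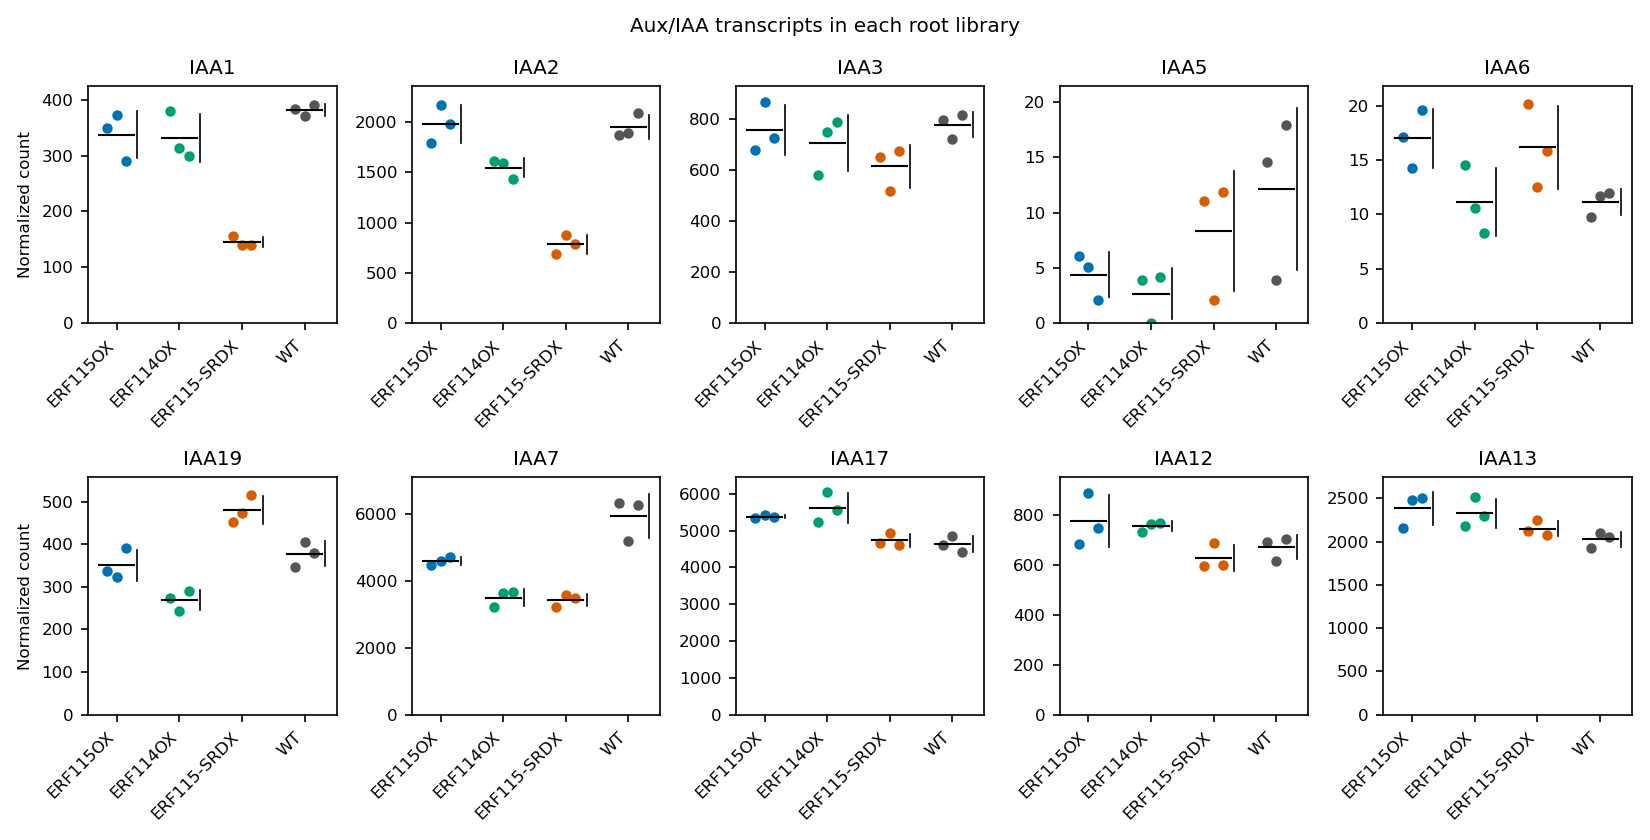
Normalized count (vertical axes, starting at 0) of each Aux/IAA gene in the 12 root libraries, by genotype. Points are libraries, horizontal bars are means and vertical bars are 1 SD; the 3 ERF115-SRDX libraries of IAA1 lie between 139.9 and 155, below every other library, while for IAA17 both overexpression lines lie above WT and ERF115-SRDX overlaps WT.

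**Figure D2:**
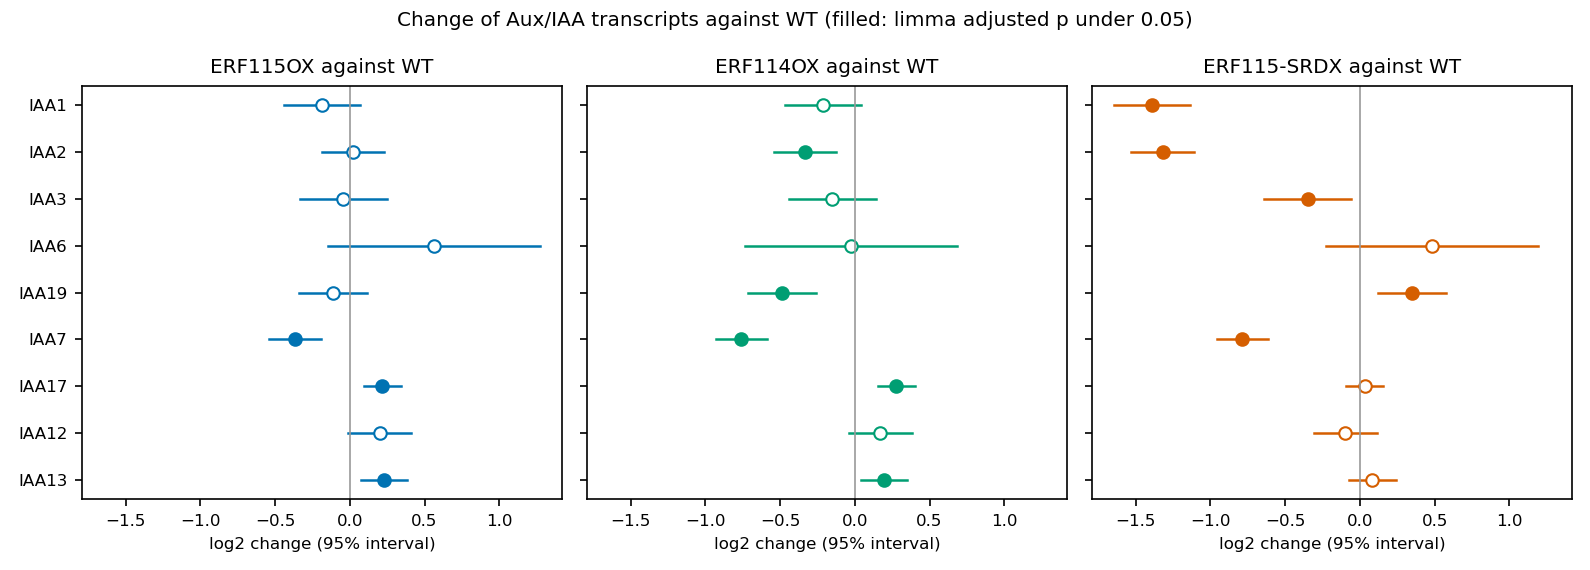
log2 change against WT of the 9 tested Aux/IAA genes in ERF115OX, ERF114OX and ERF115-SRDX, with 95% intervals. Filled points were called; IAA1 and IAA2 in ERF115-SRDX, at -1.39 and -1.32, lie furthest from 0, and IAA7 is filled in all 3 panels.

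IAA1 and IAA2 are close relatives and classic early auxin-inducible genes, and a gain-of-function allele of IAA1 is known as axr5. IAA1 had 349.5, 373 and 290.3 normalized counts in the ERF115OX libraries, 379.5, 314 and 299 in ERF114OX and 155, 139.9 and 140.4 in ERF115-SRDX, against 384, 371 and 390.4 in WT. The ERF115-SRDX libraries lay far below all others, and the overexpression libraries overlapped those of WT. In ERF115-SRDX the log2 change of IAA1 was -1.39 ± 0.12 (SE, adjusted p = 7.7e-07, limma), lower in 3 of 3 libraries. The log2 change was -0.18 in ERF115OX, with a 95% interval of -0.44 to 0.07, and -0.21 in ERF114OX, with an interval of -0.47 to 0.04, and neither passed the test.

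IAA2 had 1789, 2172 and 1987 normalized counts in ERF115OX, 1615, 1593 and 1439 in ERF114OX and 684, 877 and 792 in ERF115-SRDX, against 1870.2, 1893 and 2095 in WT. The order of the genotypes was clear except at the top, where ERF115OX and WT overlapped; ERF114OX lay below both, and ERF115-SRDX below all. IAA2 fell in ERF115-SRDX by 1.32 ± 0.10 on the log2 scale (SE, adjusted p = 1.9e-07) and in ERF114OX by 0.33 ± 0.10 (adjusted p = 0.017, limma), in 3 of 3 libraries each. In ERF115OX the log2 change was 0.02, with an interval of -0.19 to 0.23. The call in ERF114OX was lost without WT 3 (adjusted p = 0.069) or without ERF114OX 3 (0.068), with log2 changes of -0.28 in both cases.

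IAA3, known as SHY2, restricts root meristem size where cytokinin and auxin signals meet. It had 681, 868 and 727 normalized counts in ERF115OX, 581, 749 and 791 in ERF114OX and 652, 518 and 674 in ERF115-SRDX, against 797, 724 and 816 in WT. All 3 ERF115-SRDX libraries were below the WT range, and both overexpression lines overlapped it. The log2 change in ERF115-SRDX was -0.35 ± 0.13 (SE, adjusted p = 0.046, limma), at the edge of the threshold. Of the libraries left out singly, WT 1 (adjusted p = 0.11), WT 3 (0.12), ERF115-SRDX 1 (0.056) and ERF115-SRDX 2 (0.18) ended this call. The log2 change was -0.04 in ERF115OX, with an interval of -0.33 to 0.25, and -0.15 in ERF114OX, with an interval of -0.44 to 0.14.

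IAA5, IAA6 and IAA19 form a related group of auxin-inducible genes. IAA19, known as MSG2, has gain-of-function alleles that alter tropic growth of the hypocotyl and lateral roots. It had 338, 322 and 391 normalized counts in ERF115OX, 274, 245 and 292 in ERF114OX and 452, 474 and 517 in ERF115-SRDX, against 347, 407 and 380.5 in WT. ERF115-SRDX lay above every other library and ERF114OX below every other library, while ERF115OX and WT overlapped. IAA19 rose in ERF115-SRDX, with a log2 change of 0.35 ± 0.10 (SE, adjusted p = 0.014), and fell in ERF114OX, with a log2 change of -0.48 ± 0.10 (adjusted p = 0.0037, limma), each in 3 of 3 libraries. It was the only tested member that was called higher in ERF115-SRDX. The rise was lost without WT 1 or without ERF115-SRDX 3 (adjusted p = 0.062 in both cases, log2 changes of 0.29 and 0.30). In ERF115OX the log2 change was -0.11, with an interval of -0.34 to 0.12.

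IAA6, known as SHY1, was scarce, with 17.1, 14.2 and 19.6 normalized counts in ERF115OX, 14.5, 10.6 and 8.30 in ERF114OX and 20.2, 12.5 and 15.8 in ERF115-SRDX, against 9.72, 11.7 and 11.95 in WT. The ERF115OX and ERF115-SRDX libraries all lay above the WT libraries, by a small margin, and ERF114OX overlapped WT. No change of IAA6 passed the test. Its log2 change was 0.56 in ERF115OX, with an interval of -0.15 to 1.27, 0.48 in ERF115-SRDX, with an interval of -0.23 to 1.19, and -0.03 in ERF114OX, with an interval of -0.73 to 0.68. At this depth a doubling of IAA6 could not be told from no change in ERF115OX or ERF115-SRDX.

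IAA5 was counted with 0 to 18 reads per library. It had 6.04, 5.08 and 2.07 normalized counts in ERF115OX, 3.87, 0 and 4.15 in ERF114OX and 11.1, 2.09 and 11.9 in ERF115-SRDX, against 14.6, 3.90 and 17.9 in WT. A count of 0 in ERF114OX 2 allows up to 3.18 normalized counts, the worth of 3 reads, which covers counting error only. WT 2 and ERF115-SRDX 2 lay at the level of the overexpression lines, and the other WT and ERF115-SRDX libraries lay above it. When the filter on low values was dropped, the log2 changes against WT were -1.15 in ERF115OX roots, -1.95 in ERF114OX roots and -0.53 in ERF115-SRDX roots, with adjusted p of 0.32, 0.08 and 0.64 in limma. In the same fit the log2 difference was 0.80 between ERF115OX and ERF114OX (adjusted p = 0.64) and -0.62 between ERF115OX and ERF115-SRDX (0.55).

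IAA7 and IAA17 belong to one branch of the family with IAA14 and IAA16. Stabilised IAA7 (axr2) and IAA17 (axr3) make roots agravitropic and disturb root hairs. IAA7 had 4468, 4606 and 4704 normalized counts in ERF115OX, 3210.4, 3634 and 3663 in ERF114OX and 3229, 3586 and 3479.8 in ERF115-SRDX, against 6350.4, 5189 and 6282 in WT. Every library of the 3 transgenic lines lay below every WT library, ERF115OX lay between WT and the other lines, and ERF114OX overlapped ERF115-SRDX. IAA7 fell to 0.773 of WT in ERF115OX (log2 change -0.37 ± 0.08, SE, adjusted p = 0.0045), to 0.590 in ERF114OX (-0.76 ± 0.08, adjusted p = 4.3e-05) and to 0.578 in ERF115-SRDX (-0.79 ± 0.08, adjusted p = 3.8e-06). It was the only tested member called in the same direction in all 3 lines against WT, a pattern that shares the WT libraries. All 3 calls held under every alternative run.

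IAA17 had 5335, 5426 and 5379 normalized counts in ERF115OX, 5245, 6056 and 5569.8 in ERF114OX and 4671, 4940.4 and 4604 in ERF115-SRDX, against 4619, 4852 and 4428 in WT. Both overexpression lines lay above WT with no overlap, and ERF115-SRDX overlapped WT. IAA17 rose 1.16-fold in ERF115OX (log2 change 0.22 ± 0.06, SE, adjusted p = 0.013) and 1.21-fold in ERF114OX (0.28 ± 0.06, adjusted p = 0.0029). In ERF115-SRDX the log2 change was 0.03, with an interval of -0.09 to 0.16. The rise in ERF115OX missed the threshold without WT 3 (adjusted p = 0.052, log2 change 0.18). IAA7 and IAA17, of the same branch, thus had log2 changes of opposite sign in each overexpression line.

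IAA12, known as BODENLOS, represses the ARF MONOPTEROS (ARF5) when the embryonic root is laid down, and IAA13 is its closest relative. IAA12 had 686, 891 and 750.1 normalized counts in ERF115OX, 734, 765 and 769.8 in ERF114OX and 597, 690.3 and 600.1 in ERF115-SRDX, against 692, 618 and 706 in WT. No change of IAA12 against WT passed the test. The log2 changes were 0.20 in ERF115OX, with an interval of -0.01 to 0.41, 0.17 in ERF114OX, with an interval of -0.04 to 0.38, and -0.10 in ERF115-SRDX, with an interval of -0.31 to 0.12. Without ERF115OX 1, the lowest library of its line, the log2 change in ERF115OX was 0.28 and passed the test (adjusted p = 0.046).

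IAA13 had 2159, 2483 and 2508 normalized counts in ERF115OX, 2177, 2511 and 2293 in ERF114OX and 2123, 2245 and 2079 in ERF115-SRDX, against 1929.5, 2102 and 2052 in WT. All overexpression libraries lay above the WT range, and ERF115-SRDX overlapped WT. The log2 change was 0.23 ± 0.07 in ERF115OX (SE, adjusted p = 0.027) and 0.20 ± 0.07 in ERF114OX (adjusted p = 0.046, limma). In ERF115-SRDX it was 0.08, with an interval of -0.07 to 0.24. Neither call held under every omission of a single library. The call in ERF115OX was lost without WT 1 (adjusted p = 0.098), WT 3 (0.054), ERF115OX 2 (0.096) or ERF115OX 3 (0.097), and the call in ERF114OX without WT 1 (0.15), WT 2 (0.052), WT 3 (0.084), ERF114OX 2 (0.18) or ERF114OX 3 (0.085). The call in ERF114OX also ended with TMM scaling (adjusted p = 0.11), in edgeR (0.1), without the filter (0.056) and when only the compared groups were fitted (0.058).

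**Figure D3:**
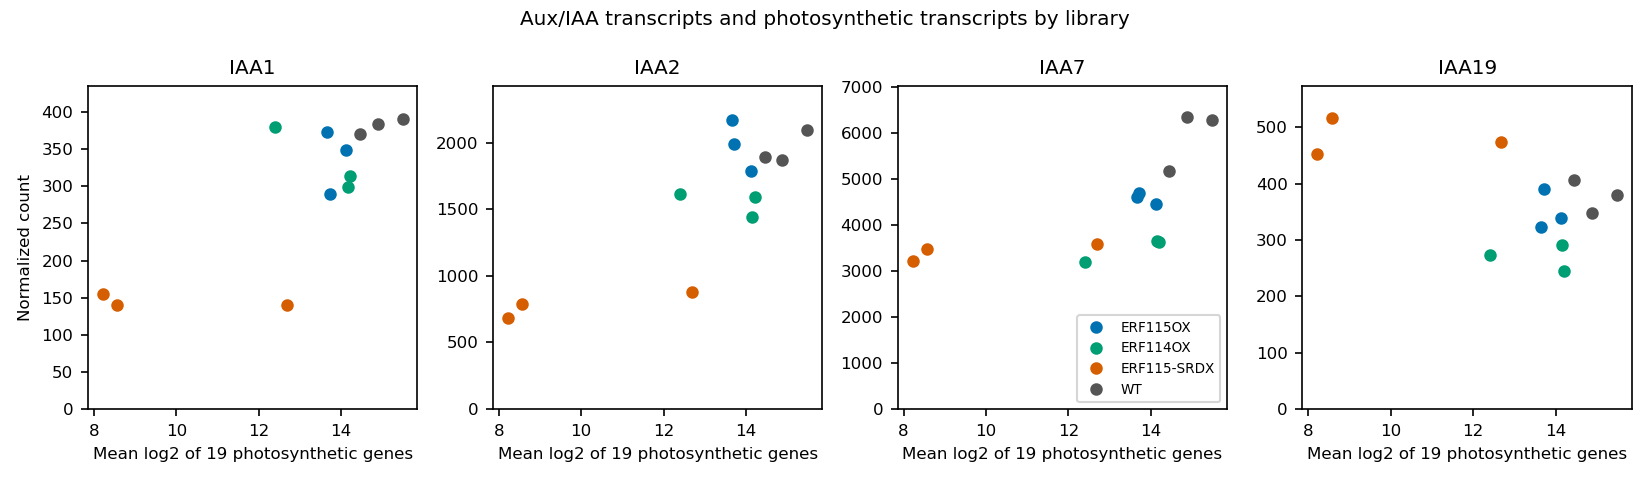
Normalized count of IAA1, IAA2, IAA7 and IAA19 (vertical axes, starting at 0) against the mean log2 normalized count of 19 photosynthetic genes (horizontal axes) in the 12 libraries, coloured by genotype. On the horizontal axis ERF115-SRDX 2, at 12.7, sits near ERF114OX 1, at 12.4, and below the other overexpression libraries and WT. On the vertical axes it sits with the other ERF115-SRDX libraries, which for IAA7 overlap those of ERF114OX.

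Photosynthetic transcripts fell in ERF115-SRDX, where limma called 19 of 19 genes of that list lower and edgeR and DESeq2 18 each, against 26.6% of all genes called lower in limma. In ERF115OX and in ERF114OX 0 of the 19 were called by any of these tools, and at an unadjusted p limma gave 0 in ERF115OX and 1 in ERF114OX. These genes took 0.0233, 0.308 and 0.0252% of the normalized counts in the ERF115-SRDX libraries, against 1.69, 1.16 and 2.38% in WT. They took 0.959, 0.707 and 0.738% in ERF115OX and 0.301, 0.965 and 0.930% in ERF114OX, each below every WT library. The log2 changes of the 19 ran from -1.85 to -0.74 in ERF115OX and from -1.95 to -0.53 in ERF114OX. The absence of calls in these lines thus does not show a level equal to WT. In ERF115-SRDX 2, the library of that line with the most photosynthetic transcripts, IAA1 stood at 139.9, IAA2 at 877 and IAA7 at 3586 normalized counts. Each was below every WT library. The photosynthetic share of that library, 0.308%, was itself below every WT library, so it was not matched to WT. The cause of these falls was not tested. With the photosynthetic level as a covariate, the log2 changes in ERF115-SRDX were -1.58 for IAA1 (adjusted p = 0.00014), -1.09 for IAA2 (0.00023) and -0.57 for IAA7 (0.006), while IAA3 (-0.52 ± 0.24, adjusted p = 0.14) and IAA19 (0.30 ± 0.21, adjusted p = 0.35) were no longer called. The mean log2 level in ERF115-SRDX, 8.22 to 12.7, overlapped neither WT, 14.4 to 15.5, nor ERF115OX, 13.7 to 14.1. The covariate therefore cannot separate this level from the genotype, whether a call was kept or lost. In bulk roots, fewer cells of a type that uses a gene and less RNA of that gene per cell cannot be told apart.

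The overexpression lines were next compared with each other, which bears on whether ERF115 and ERF114 act on the same members. IAA2 and IAA7 were higher in ERF115OX than in ERF114OX. They are 2 of the 9 tested members, or 22.2%, where 6.9% of all genes were called, 4.77% higher and 2.13% lower. IAA2 and IAA7 are neighbours in the TAIR10.1 annotation with 1 gene between them. So are IAA3 and IAA17, neither of which was called between these lines. No overlap between the lines was seen for 3 members, where 25.7% of all genes did not overlap. In limma 0 members were called lower, also at an unadjusted p under 0.05, and in edgeR and DESeq2 0 as well. The log2 difference, ERF115OX minus ERF114OX, was 0.39 ± 0.08 for IAA7 (SE, adjusted p = 0.012) and 0.35 ± 0.10 for IAA2 (adjusted p = 0.046). For IAA19 it was 0.37 ± 0.10, with no overlap between the lines and an adjusted p of 0.052 in limma, 0.049 in edgeR and 0.03 in DESeq2. IAA7 missed the threshold without ERF115OX 2 (adjusted p = 0.054), and IAA2 missed it without ERF115OX 2 (0.2), ERF115OX 3 (0.12), ERF114OX 1 (0.069), ERF114OX 2 (0.099) or ERF114OX 3 (0.15).

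For the remaining members no difference between ERF115OX and ERF114OX passed the test. The 95% intervals of the log2 difference were narrow for IAA17, from -0.19 to 0.06, for IAA13, from -0.12 to 0.19, and for IAA12, from -0.18 to 0.24. They were -0.23 to 0.28 for IAA1 and -0.18 to 0.40 for IAA3. For IAA6 the interval ran from -0.12 to 1.298, too wide to place the lines relative to each other.

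**Figure D4:**
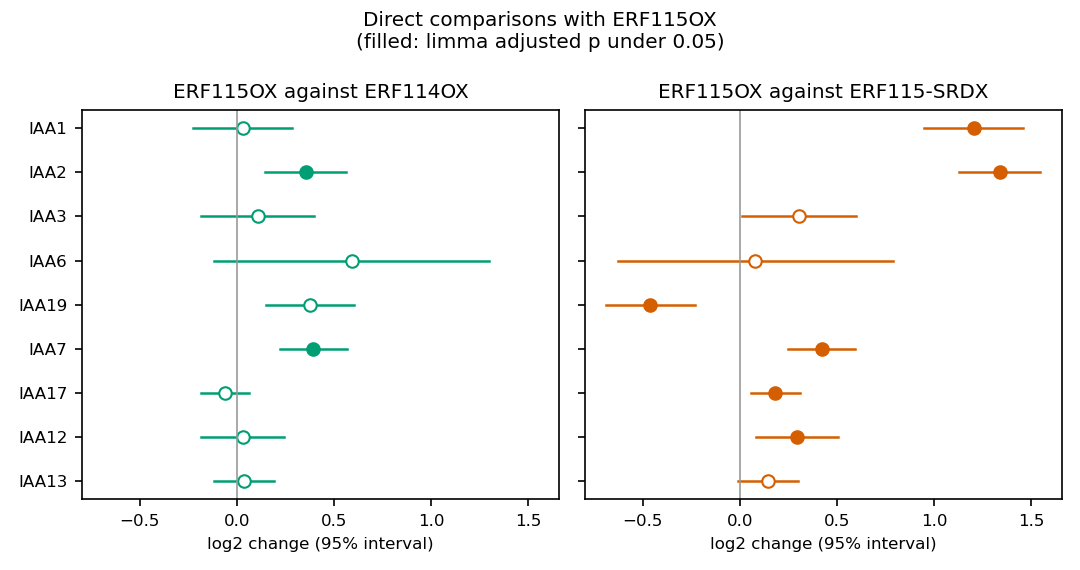
log2 difference of the 9 tested Aux/IAA genes between ERF115OX and ERF114OX and between ERF115OX and ERF115-SRDX, with 95% intervals. Filled points were called; a value above 0 is higher in ERF115OX, and IAA19 lies at 0.37 in the first panel and at -0.46 in the second.

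ERF115OX and ERF115-SRDX carry the same factor, without and with the repression domain. IAA1 and IAA2 were 2.33 and 2.53 times as high in ERF115OX, with log2 differences of 1.21 ± 0.12 (SE, adjusted p = 2.2e-06) and 1.34 ± 0.10 (adjusted p = 1.3e-07, limma). IAA7 was higher by 0.42 ± 0.08 (adjusted p = 0.00061), IAA12 by 0.30 ± 0.10 (0.02) and IAA17 by 0.18 ± 0.06 (0.015) on the log2 scale, and IAA19 was lower, at -0.46 ± 0.10 (0.0023). Of the 9 tested members 5 were higher and 1 lower, or 66.7%, where 56% of all genes were called, 29.6% higher and 26.4% lower. The groups did not overlap for 6 members, where 63.4% of all genes did not overlap. The intervals were 0.01 to 0.60 for IAA3, -0.01 to 0.30 for IAA13 and -0.63 to 0.79 for IAA6, none of which was called. IAA12 overlapped between the groups and its call was lost without ERF115OX 2 (adjusted p = 0.097), ERF115-SRDX 1 (0.074) or ERF115-SRDX 3 (0.07). The call of IAA17 was lost without ERF115-SRDX 1 (0.052) or ERF115-SRDX 3 (0.058). Without ERF115OX 1, IAA3 (0.049) and IAA13 (0.018) were called. With the photosynthetic level as a covariate IAA1 (log2 difference 1.35) and IAA2 (1.16) were still called, and the other calls were lost. The log2 difference was then 0.25 for IAA7 (adjusted p = 0.11), 0.12 for IAA12 (0.59) and 0.09 for IAA17 (0.5), and -0.42 ± 0.18 for IAA19 (SE, 0.084), close to its value without the covariate.

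The rest of the Aux/IAA family was measured by 19 further genes, of which 18 were tested and IAA15 fell below the filter. Of these, 6 rose and 2 fell in ERF115OX, 5 rose and 4 fell in ERF114OX, and 2 rose and 9 fell in ERF115-SRDX. These are 44.4, 50 and 61.1% of the 18 in the order given, where 32.1, 37.1 and 50.1% of all genes were called. The median log2 changes were 0.08, -0.10 and -0.34 in that order of lines. Over the alternatives 4 to 6 rose and 0 to 2 fell in ERF115OX, and 5 to 6 rose and 4 to 5 fell in ERF114OX. In ERF115OX 4 rose and 0 fell without WT 1 or without ERF115OX 3. Over all genes 5482 and 5752 were called in those runs, in place of 7499. IAA31, a member with an incomplete degron, had 114, 128 and 132 normalized counts in ERF115OX, 90.0, 87.9 and 60.2 in ERF114OX and 42.3, 37.6 and 26.7 in ERF115-SRDX, against 48.6, 33.2 and 42.8 in WT. Its log2 change was 1.58 ± 0.23 in ERF115OX (SE, adjusted p = 0.00044) and 0.91 ± 0.23 in ERF114OX (adjusted p = 0.0087, limma), above the range of WT in 3 of 3 libraries each. IAA27 rose in both overexpression lines, with log2 changes of 0.55 ± 0.10 in ERF115OX (SE, adjusted p = 0.0018) and 0.50 ± 0.10 in ERF114OX (adjusted p = 0.0026). IAA33 fell in ERF115OX, with 41.0 ± 17.1 normalized counts against 73.8 ± 7.03 in WT (adjusted p = 0.026), a call that was lost without WT 1 (adjusted p = 0.074), WT 2 (0.063), ERF115OX 2 (0.1) or ERF115OX 3 (0.083).

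IAA34 and IAA29 had the largest log2 changes among the called genes of that list in ERF115-SRDX, -1.78 ± 0.43 (SE, adjusted p = 0.0039) and -1.74 ± 0.46 (adjusted p = 0.007, limma). IAA34 averaged 7.42 ± 3.04 normalized counts in ERF115-SRDX, against 27.2 ± 7.23 in WT, and IAA29 averaged 18.01 ± 6.08 against 61.3 ± 14.5 (SD, n = 3 each). With the photosynthetic level as a covariate neither was called (adjusted p = 0.44 and 0.84), and the 9 falls were 6 or more in each alternative run. IAA14, known as SOLITARY-ROOT, stands next but one to IAA1 in the TAIR10.1 annotation and was looked up after its values were seen. It had 1073, 1039 and 1097 normalized counts in ERF115OX, 1052, 990.1 and 1027 in ERF114OX and 321, 400.0 and 318 in ERF115-SRDX, against 778, 822 and 849 in WT. IAA14 rose in both overexpression lines and fell in ERF115-SRDX with no overlap, at log2 changes of 0.39, 0.33 and -1.24, whereas IAA1 was not called in the overexpression lines. Reads were assigned with a strand setting that is not given in the sources used here, so reads of overlapping antisense genes cannot be set apart for any of these genes.

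On the receptor side, 6 TIR1/AFB genes were tested, whose products bind auxin together with an Aux/IAA degron. Their log2 changes ran from -0.15 to 0.26 in ERF115OX, from -0.10 to 0.28 in ERF114OX and from -0.39 to 0.40 in ERF115-SRDX. The shares of the 6 called were 16.7, 33.3 and 33.3% in that order, where 32.1, 37.1 and 50.1% of all genes were called. AFB5 rose in ERF115OX, to 3832 ± 131 normalized counts against 3202 ± 204 in WT (adjusted p = 0.0048), and in ERF114OX, to 3875 ± 221 (adjusted p = 0.0029, limma). TIR1 rose in ERF114OX, with 5772 ± 379 normalized counts against 4907 ± 330.2 in WT (adjusted p = 0.016), and fell in ERF115-SRDX, with 3749 ± 147 (adjusted p = 0.00031; SD, n = 3 each). AFB4 rose in ERF115-SRDX, with 1641 ± 3.35 normalized counts against 1242 ± 55.8 in WT (adjusted p = 4.1e-05). In limma 0 receptors were called lower in either overexpression line, also at an unadjusted p under 0.05, while edgeR called 1 lower in ERF114OX and 0 in ERF115OX, and DESeq2 called 0 in both. With TMM scaling limma called 1 lower in ERF114OX, and without ERF115OX 1 it called 1 lower in ERF115OX. The rise of TIR1 in ERF114OX was lost without WT 3 (adjusted p = 0.069) or without ERF114OX 2 (0.071), and its fall in ERF115-SRDX with the photosynthetic covariate (0.16).

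Of 6 genes for SCF subunits and for the neddylation that activates the ligase, ASK1 and RBX1 rose in both overexpression lines. The shares of the 6 called were 33.3, 33.3 and 50% in ERF115OX, ERF114OX and ERF115-SRDX. These lie near the 32.1, 37.1 and 50.1% of all genes called. ASK1, the adaptor that holds the receptor, averaged 11856 ± 556 normalized counts in ERF115OX and 11787 ± 1139 in ERF114OX, against 9342 ± 163 in WT (SD, n = 3 each; adjusted p = 0.0022 in both, limma). RBX1, the ring subunit, had log2 changes of 0.29 and 0.27 in the same lines (adjusted p = 0.0027 and 0.0035). In ERF115-SRDX roots, 2 of the 6 rose, ASK1 among them, and ASK2 fell (log2 changes of 0.21 and -0.20, adjusted p = 0.015 and 0.023). Both calls were lost with the photosynthetic covariate (adjusted p = 0.056 and 0.64); over all alternatives the log2 change of ASK1 ran from 0.20 to 0.34 and that of ASK2 from -0.24 to -0.10. ASK2 also lost its call without WT 1 (0.089), WT 2 (0.051) or ERF115-SRDX 1 (0.11). For both overexpression lines limma, edgeR and DESeq2 called 0 of the 6 lower, also unadjusted.

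TOPLESS and its relatives are the co-repressors that Aux/IAA proteins recruit. In ERF115-SRDX all 5 genes of this family were called higher, where 23.4% of all genes were called higher, with log2 changes from 0.23 to 1.64 and a median of 0.38. TPR3 had 6018, 6710.4 and 5794 normalized counts in ERF115-SRDX, against 2002, 2014 and 1903 in WT, a log2 change of 1.64 ± 0.06 (SE, adjusted p = 3.4e-10). TPR1 had 7946, 8515 and 7912 normalized counts in ERF115-SRDX, against 5794, 5847 and 5676 in WT (log2 change 0.49 ± 0.04, adjusted p = 1.5e-06, limma). All 5 were also called higher under every alternative run. In ERF114OX, 0 of the 5 were called by limma, edgeR or DESeq2, and 0 at an unadjusted p, with log2 changes from -0.01 to 0.08. In ERF115OX the log2 changes ran from -0.10 to 0.21, and TPR3 was called higher, with 2281 ± 80.9 normalized counts against 1973 ± 61.0 in WT (adjusted p = 0.015), a call lost without WT 3 (0.057) or ERF115OX 2 (0.061). All 5 TOPLESS genes were called lower in ERF115OX than in ERF115-SRDX, with log2 differences from -1.43 to -0.16, where 26.4% of all genes were called lower. TPR2 lost this call with the photosynthetic covariate (adjusted p = 0.062).

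ARFs include the partners that Aux/IAA proteins silence, and 15 ARFs were tested. Of these, 1 rose and 6 fell in ERF115OX, 1 rose and 5 fell in ERF114OX, and 1 rose and 7 fell in ERF115-SRDX, at median log2 changes of -0.17, -0.14 and -0.19. The shares called were 46.7, 40 and 53.3%, where 32.1, 37.1 and 50.1% of all genes were called. ARF5, the partner of IAA12, had 2544, 2181 and 2048 normalized counts in ERF115OX, 2548, 2502 and 2461 in ERF114OX and 1115, 979.5 and 1152 in ERF115-SRDX, against 1789, 1695 and 1485 in WT. The overexpression lines lay above the WT range and ERF115-SRDX below it. ARF5 rose in ERF115OX (log2 change 0.44 ± 0.09, SE, adjusted p = 0.0033) and ERF114OX (0.60 ± 0.09, adjusted p = 0.00044) and fell in ERF115-SRDX (-0.61 ± 0.09, adjusted p = 9.7e-05, limma), and these calls held under every alternative run. ARF11 rose in ERF115-SRDX, with 247 ± 11.5 normalized counts against 121 ± 34.7 in WT (adjusted p = 0.0057). ARF9 fell in ERF115OX (log2 change -0.28, adjusted p = 0.013) and ERF114OX (-0.31, adjusted p = 0.0061). ARF18 also fell in both, at -0.27 in ERF115OX (adjusted p = 0.034) and -0.56 in ERF114OX (adjusted p = 5e-04); its call in ERF115OX was lost without WT 1 (0.11), WT 2 (0.066), WT 3 (0.052), ERF115OX 2 (0.084) or ERF115OX 3 (0.092). The 6 falls in ERF115OX were 2 without WT 3 or ERF115OX 2 or when only the compared groups were fitted, and 3 without WT 1, the 5 in ERF114OX were 3 without WT 3, and the 7 in ERF115-SRDX were 4 with the photosynthetic covariate. Without WT 3, 2 ARFs rose in ERF115-SRDX.

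Of 10 early auxin-response genes outside the Aux/IAA family, 6 rose and 1 fell in ERF115OX, 3 rose and 3 fell in ERF114OX, and 2 rose and 4 fell in ERF115-SRDX. These are 70, 60 and 60% of the 10, where 32.1, 37.1 and 50.1% of all genes were called. Over the alternatives 4 to 6 rose and 1 fell in ERF115OX, and 3 rose and 3 fell in ERF114OX. In ERF115-SRDX 1 to 3 rose and 3 to 5 fell. GH3.3, whose product conjugates auxin to amino acids, had 15689, 17182 and 16100.2 normalized counts in ERF115-SRDX, against 1558, 1645 and 1523 in WT, a log2 change of 3.37 ± 0.06 (SE, adjusted p = 7.3e-12, limma). LBD29, a lateral root factor, also rose there, to 129 ± 5.10 normalized counts against 50.7 ± 13.5 in WT (log2 change 1.36, adjusted p = 0.0014). Its adjusted p was 0.065 with the photosynthetic covariate, and its log2 change ran from 1.12 to 1.48 over all alternatives. GH3.2 rose in ERF115OX, to 1234 ± 145 normalized counts, and in ERF114OX, to 1649 ± 131, against 492 ± 49.97 in WT (SD, n = 3 each; adjusted p = 5.3e-06 and 5.6e-07). LBD17 rose in the same lines, with log2 changes of 1.32 and 1.39 (adjusted p = 0.01 and 0.0068). GH3.3 fell in both overexpression lines against WT, at log2 changes of -0.50 in ERF115OX (adjusted p = 2e-04) and -1.23 in ERF114OX (adjusted p = 2.6e-07). Between these lines GH3.3 was higher in ERF115OX, with 1118 ± 61.5 normalized counts, than in ERF114OX, with 671 ± 44.1 (adjusted p = 4.9e-05).

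**Figure D5:**
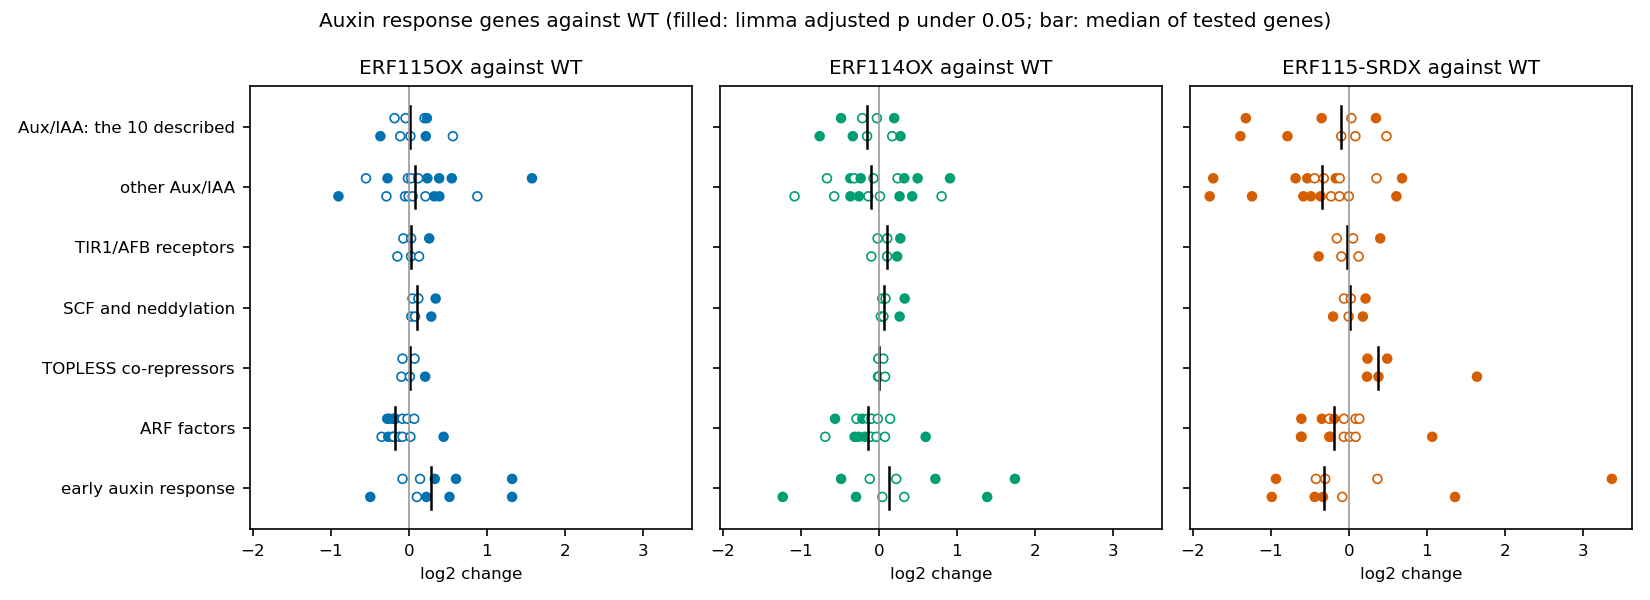
log2 change against WT of the tested genes of each auxin response group in the 3 lines; each point is a gene, filled where called, and vertical bars are medians. All 5 TOPLESS genes lie above 0 and are filled in ERF115-SRDX, and the point at 3.37 in the lowest row of that panel is GH3.3.

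When the same pathway lists were compared directly, the other Aux/IAA genes included 3 called higher and 0 lower in ERF115OX than in ERF114OX, or 16.7% of the 18, where 6.9% of all genes were called. In limma at an unadjusted p the counts were 5 and 0, and in edgeR and DESeq2 they were 3 and 0. When only these groups were fitted 1 was higher, and without ERF115OX 1 the counts were 2 higher and 1 lower. IAA26 (log2 difference 0.60, adjusted p = 0.00037) and IAA16 (0.28, adjusted p = 0.01, and 0.059 when only these groups were fitted) led them. Against ERF115-SRDX, 14 of the 18 were called higher and 3 lower in ERF115OX, or 94.4%, where 56% of all genes were called, at a median log2 difference of 0.53, with 11 to 14 higher over the alternatives. IAA31 (log2 difference 1.80) and IAA34 (1.73) were the largest of these. Of the early auxin-response genes, 4 were higher and 1 lower in ERF115OX than in ERF114OX, or 50%, where 6.9% of all genes were called. Without ERF115OX 3 only 2 were higher. GH3.6, at 3353 ± 31.2 normalized counts in ERF115OX against 2254 ± 370.2 in ERF114OX (SD, n = 3 each; adjusted p = 0.017), was among them, and was not called without ERF115OX 2 (adjusted p = 0.064) or ERF115OX 3 (0.054). TPR3 was the TOPLESS gene called between those lines (log2 difference 0.22, adjusted p = 0.042), a call that each library of the pair other than ERF115OX 1 ended when left out (adjusted p from 0.091 to 0.17). Of the 15 ARFs, 0 were called between those lines by limma, edgeR or DESeq2, and limma gave 1 higher and 1 lower at an unadjusted p. Against ERF115-SRDX, ARF5 was higher in ERF115OX (log2 difference 1.06) and ARF11 lower (-1.42), LBD17 higher (1.74) and GH3.3 lower (-3.87), TIR1 higher (0.42) and AFB4 lower (-0.38), and ASK2 (0.28) and RBX1 (0.26) higher, with adjusted p in limma of 0.0031 or less for each. With the photosynthetic covariate the calls of ASK2 and RBX1 (adjusted p = 0.18 in both) and of LBD17 (0.052) were lost, as was that of IAA34 (0.24), whose log2 difference ran from 1.09 to 2.12 over all alternatives.

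For the 3 members with the widest range of group means on the log2 scale, the genes with the most similar profile over the 12 libraries were looked up, as a description. The measure was the root mean square difference of log2 values, each gene centred on its own mean, so a small value is a close match. LTI78, a cold- and drought-responsive gene, differed from IAA1 by 0.129, AT5G38850 by 0.141 and AT1G53180 by 0.146, where the median over all genes was 0.604. AT3G52070 differed from IAA2 by 0.0957, AT2G20950 by 0.0986 and AT5G05200 by 0.101, where the median was 0.599. LTI78 averaged 2365 normalized counts in ERF115OX roots, 2194 in ERF114OX roots and 1081 in ERF115-SRDX roots, against 2576 in WT. The matches to IAA5 were loose, with AT1G75890 at 0.677, RGF1, a root meristem growth factor peptide gene, at 0.702 and AT4G38330 at 0.720, against a spread of 1.14 of IAA5 about its own mean.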

How the data were processed

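Oligo(dT) beads selected the mRNA and second strands were made with dUTP, per the labels' protocols. The authors deposited 1 signal value for each gene in each library, a normalized count, which is the number of reads over a size factor from DESeq2. The submitters' processing notes name Trimmomatic 0.39, HISAT2 2.2.1, SAMtools 1.11 and featureCounts of Subread 2.0.1. Build, annotation, filters and strand setting were not given in the sources used here. Names and neighbours come from TAIR10.1, in which all 37884 identifiers were found, and no coordinates are given.

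Each library's values are multiples of the worth of 1 read, which gave back whole reads for all but 1 of 316348 positive values (relative tolerance 1e-06). The worth of 3 reads was 2.90 to 3.18 normalized counts. A pseudocount of 1 was added before taking log2, so changes of scarce genes are understated. limma 3.58.1 (R 4.3.3) was fitted to all 12 libraries with a variance trend, on the 23375 genes averaging 10 or more, and tests were two-sided. Alternatives used a pseudocount of 0.5 or 4, no filter, TMM scaling, edgeR 4.0.16 or DESeq2 1.42.0 on those reads, a fit restricted to the compared groups, a replicate block, the photosynthetic level (mean log2 of 19 genes) as covariate, the omission of ERF114OX 1 plus ERF115-SRDX 2, and the omission of each library singly. The limma script was tested on simulated data.

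Members, lists and settings were chosen with earlier results of these data known. All 10 members are named in every comparison. Of each other list the called genes with the 2 largest absolute log2 changes are named, and receptors and TOPLESS genes also appear as ranges. The root markers named, IAA14, and the values of IAA27, ARF18 and GH3.3 against WT in ERF115OX and of ARF9 and GH3.3 in ERF114OX fall outside this rule and were chosen after their values were seen. Python 3.11.15, pandas 2.3.3 and matplotlib 3.10.9 made the tables and figures.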

Additional observations from a re-analysis of the deposited data

How the results depend on the processing

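The number of tested members called was within 1.5 times the reported count under most alternatives. With the photosynthetic level as a covariate it was 3 in ERF115-SRDX against WT and 2 in ERF115OX against ERF115-SRDX. In ERF115OX against ERF114OX it was 1 without the filter and 1 in a fit of only those groups. With libraries left out singly the counts ran from 1 (without WT 3) to 4 in ERF115OX against WT, 3 (without WT 3 or ERF114OX 3) to 5 in ERF114OX against WT, 3 (without WT 1) to 5 in ERF115-SRDX against WT, 0 (without ERF115OX 2) to 2 in ERF115OX against ERF114OX, and 4 to 8 in ERF115OX against ERF115-SRDX. Over all genes, the covariate gave 6031 calls in place of 11707 in ERF115-SRDX against WT and 8152 in place of 13097 in ERF115OX against ERF115-SRDX. The balance of directions moved with the scaling. Under TMM 38.7% of the called genes were higher in ERF114OX against WT, in place of 47.2%, and 45% in ERF115OX against WT, in place of 51.2%. In ERF115OX against ERF114OX, restricting the fit to those groups gave 917 in place of 1613, 80.6% of them higher in place of 69.2%; the other counts below the reported one by over 1.5 times were 600, 887, 841 and 922 without ERF115OX 2, ERF115OX 3, ERF114OX 2 and ERF114OX 3. The cause was not tested. Every change of sign was in a member not called. For IAA2 in ERF115OX against WT, TMM scaling gave -0.006167 and edgeR -0.003174, and libraries left out singly gave -0.04881 to 0.09092. The covariate gave -0.2133 for IAA6 and 0.1335 for IAA12 in ERF115-SRDX against WT. Without ERF114OX 1 and ERF115-SRDX 2, the log2 difference between ERF115OX and ERF114OX was -0.0274 for IAA3 and -0.01291 for IAA13, and that of IAA6 between ERF115OX and ERF115-SRDX was -0.07881. Libraries left out singly gave -0.1442 to 0.03085 for IAA3 in ERF115OX against WT, -0.219 to 0.1505 for IAA6 in ERF114OX against WT, -0.07881 to 0.2435 for IAA6 in ERF115OX against ERF115-SRDX, and, in ERF115OX against ERF114OX, -0.04706 to 0.1334 for IAA1, -0.0274 to 0.1945 for IAA3, -0.07545 to 0.1126 for IAA12 and -0.01291 to 0.1034 for IAA13. Of the members' log2 changes recomputed under the alternatives, 634 kept their direction and side of the threshold, 44 lost the call, 9 gained it and 24 changed sign. Same-numbered replicates deviated together in 4 of 18 pairs (r over 0.1, from -0.283 to 0.44), and 4 of 12 libraries correlated best with their own number. The labels do not say whether a number marks a shared batch, and with 3 libraries per genotype these correlations cannot decide it. With the replicate block the counts were 3, 5, 4, 3 and 7 in the order of the comparisons above. IAA3 in ERF115-SRDX (adjusted p = 0.055) was then not called. Depth limits IAA5 and IAA6.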
